A study of Gallus gallus with 3 samples.

Results

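Skeletal muscle mass is held between a brake and an accelerator, and 7 genes at the head of those pathways are described here in chicken breast muscle. The brake is myostatin (MSTN), a secreted protein of the TGF-beta family made by muscle fibres. It binds the activin type II receptors ACVR2A and ACVR2B and signals through SMAD proteins, and animals that lack it grow more muscle. Follistatin (FST) is a secreted antagonist that captures myostatin and activins before they reach the receptors. The accelerator is the insulin-like growth factor pair, IGF1 and IGF2, which act on the receptor IGF1R and through AKT and mTOR promote protein synthesis and muscle growth.

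The genes were taken by symbol: rows of the deposited transcript tables whose RefSeq accession belongs to MSTN, FST, ACVR2A, ACVR2B, IGF1, IGF2 or IGF1R in the NCBI chicken gene table, summed per gene. All 7 were found among 10663 named genes, each through 1 curated row. NCBI lists 3 transcripts of FST and 5 of ACVR2A, so the levels of these genes may miss isoforms, and 1 transcript of each other gene. The tissue was pectoral (breast) muscle from male chickens of the Arbor Acres meat breed, 42 days old and kept in air with 50 ± 3 ppm of ammonia. All 3 libraries share these conditions and are numbered 1 to 3 as in the labels. Libraries from other ammonia levels were not analysed here, and the values below measure no response to ammonia. The labels do not state whether each library is a different bird, so the SDs and p-values cover only the differences among these 3 libraries, which could be technical.

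The deposited numbers are per transcript and were read as FPKM, a level corrected for transcript length and for library size. The tables name no unit, and this one was inferred from the numbers. Library totals were 569361, 586193 and 573648, and read depth is unknown. Library 1 lay above the mean of the other 2 by a median log2 of 0.15 over the 6595 named genes that reached 1 FPKM in 2 or more libraries, which are called the genes kept. Of the 7 genes, 4 passed that filter (MSTN, FST, ACVR2A and IGF2), and IGF1, IGF1R and ACVR2B did not. The label of the tissue was checked on its markers: MYL1 and TNNT3, of the fast contractile apparatus, had means of 15976 ± 2880 and 15641 ± 3595 FPKM (SD, n = 3). The 5 of 10 fibre markers matched summed to 48879, 62253 and 62384 FPKM in libraries 1 to 3. Of these 5, 4 were lowest in library 1, against 25.8% of the genes kept. MB, a fibre marker named after its values were seen, stood at 1.82, 9.32 and 6.36 FPKM.

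The brake ligand was the most abundant of the 7 transcripts in each library. MSTN was listed at 44.4, 62.5 and 33.5 FPKM in libraries 1, 2 and 3, a mean of 46.8 ± 14.6 FPKM (SD, n = 3). It was highest in library 2 and lowest in library 3, a 1.86-fold range. By mean level it ranked 958 of 10663 named genes, above 91.0% of them. MSTN alone made up 61.0%, 79.6% and 69.4% of the summed FPKM of the 7 genes in libraries 1 to 3.

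The receptors of myostatin were unequal. ACVR2A, a type II receptor shared with activins, was listed at 13.9, 6.82 and 10.02 FPKM, a mean of 10.3 ± 3.56 FPKM (SD, n = 3). Library 2, which was highest for the ligand, was the lowest for this receptor. ACVR2B, the type II receptor that in mammals binds myostatin with the higher affinity, was listed at 0.234, 0.104 and 0.145 FPKM, a mean of 0.161 ± 0.067 FPKM (SD, n = 3). Its level was below 1 FPKM in every library and its mean was above that of 25.2% of named genes.

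Within each library the receptors stood in a similar ratio. ACVR2A exceeded ACVR2B by 59.4-, 65.7- and 68.9-fold within libraries 1, 2 and 3. The log2 ratio of ACVR2B to ACVR2A was -6.01 ± 0.11 (SD, n = 3), the smallest SD of the 11 ratios of ligands, receptors and antagonist computed. With a pseudocount of 1 added, which is larger than the ACVR2B level, the log2 ratio was -3.23 ± 0.39 and its SD was no longer the smallest. The size of the gap and its narrow spread rest on values near the bottom of the scale.

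The antagonist was the gene that differed most between libraries. FST was listed at 3.91, 2.53 and 0.584 FPKM, a mean of 2.34 ± 1.67 FPKM (SD, n = 3). Library 1 was 6.69-fold and library 2 4.32-fold above library 3, while libraries 1 and 2 differed 1.55-fold. MSTN exceeded FST by 11.4-, 24.7- and 57.4-fold in libraries 1 to 3, a mean log2 ratio of 4.66 ± 1.17 (SD, n = 3). The largest of these was in library 3, where FST lay below 1 FPKM. With a pseudocount of 1 the mean log2 ratio was 3.94 ± 0.65. The brake ligand was thus above its antagonist in 3 of 3 libraries, with a margin that differed widely. FST also lay below the sum of its competitors for ligand, ACVR2A and ACVR2B, at a mean log2 ratio of -2.48 ± 1.44 (SD, n = 3). That ratio did not exceed 2 SD, and without library 3 it was -1.66 and did.

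**Figure D1:**
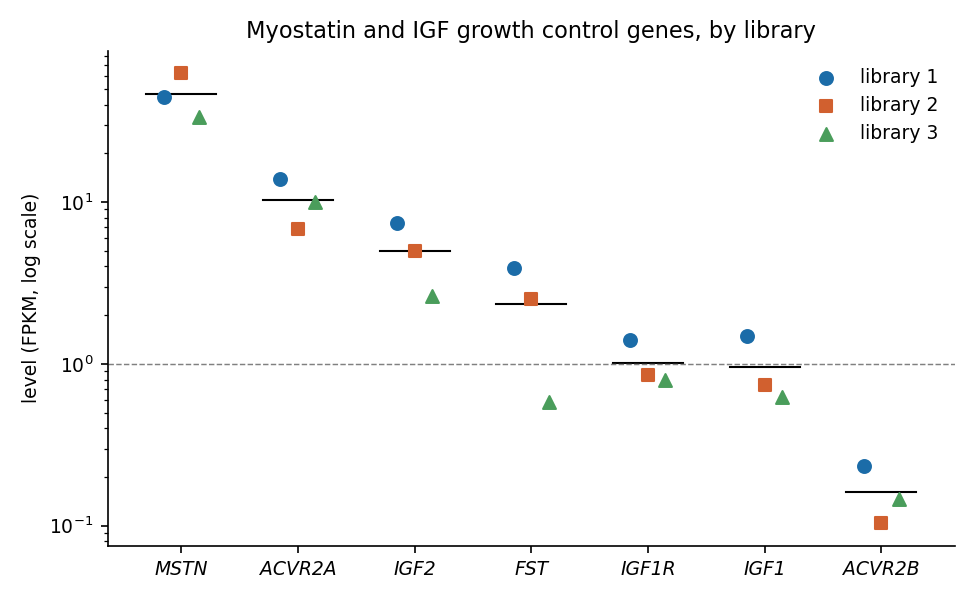
Level of each gene in FPKM on a log axis, with 1 point per library, a black bar at the mean of 3 libraries and a dashed line at 1 FPKM. MSTN lies above every other gene in each library, ACVR2B below every other gene, and FST spans from 0.584 to 3.91 FPKM.

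Among the growth factors, IGF2 was above IGF1 in each library. IGF2, the form associated with embryonic growth in mammals, was listed at 7.39, 4.95 and 2.62 FPKM, a mean of 4.99 ± 2.38 FPKM (SD, n = 3). IGF1, the growth hormone dependent form, was listed at 1.495, 0.744 and 0.626 FPKM, a mean of 0.955 ± 0.471 FPKM (SD, n = 3). Both were highest in library 1 and lowest in library 3. The log2 ratio of IGF2 to IGF1 was 2.31, 2.73 and 2.07, a mean of 2.37 ± 0.34 (SD, n = 3), or 1.56 with a pseudocount of 1.

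IGF1R, the tyrosine kinase receptor of both factors, was listed at 1.40, 0.857 and 0.790 FPKM, a mean of 1.02 ± 0.335 FPKM (SD, n = 3). It could not be ordered against IGF1: the log2 ratio of IGF1 to IGF1R was 0.09, -0.20 and -0.34, a mean of -0.15 ± 0.22 (SD, n = 3). Library 1 lay on the other side of 0 from the other 2. Without it the ratio was -0.27 and met the rule for separation, applied to 2 libraries only. IGF1 and IGF2 together exceeded IGF1R by 6.34-, 6.65- and 4.11-fold in libraries 1 to 3. IGF2 carried that margin, at a log2 ratio of 2.22 ± 0.43 to IGF1R (SD, n = 3).

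Set against each other, the brake ligand outweighed the growth factors in transcript level. MSTN exceeded the sum of IGF1 and IGF2 by 4.995-, 10.98- and 10.3-fold in libraries 1 to 3, a mean log2 ratio of 3.05 ± 0.63 (SD, n = 3). It exceeded the sum of its receptors by 3.13-, 9.03- and 3.30-fold, a mean log2 ratio of 2.18 ± 0.86 (SD, n = 3). The margin over the receptors was widest in library 2, where MSTN was highest and ACVR2A lowest. Levels of RNA per length were compared here, and protein was not measured.

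**Figure D2:**
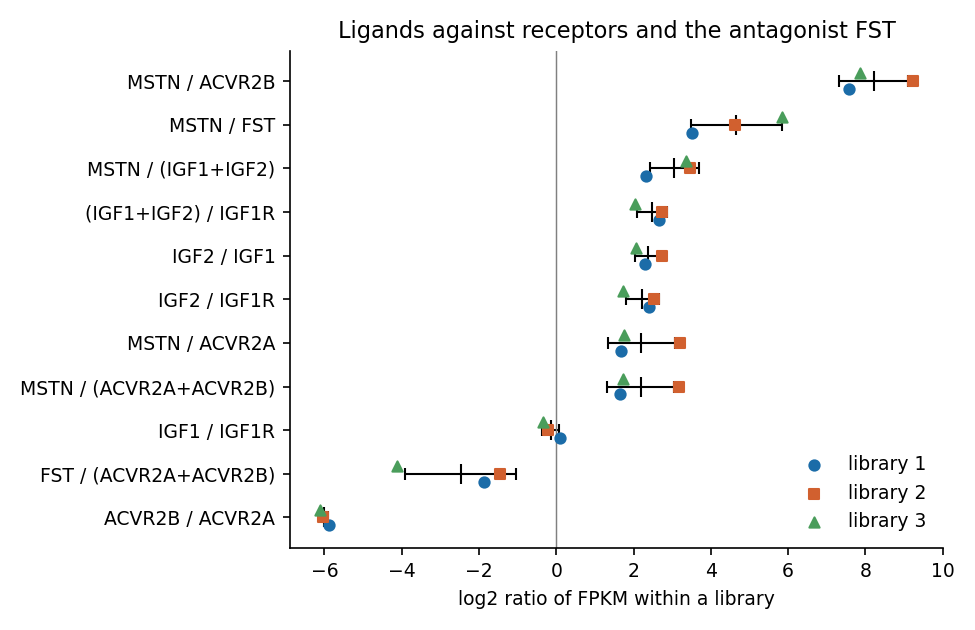
Log2 ratio of FPKM within each library for 11 pairs or sums, with 1 point per library, and the mean with its SD (n = 3) as a bar. Ratios with MSTN as numerator all lie above 0, the ratio of IGF1 to IGF1R straddles 0, and that of ACVR2B to ACVR2A has the narrowest spread with no pseudocount added, at -6.01 ± 0.11.

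The order of the 7 means was MSTN, ACVR2A, IGF2, FST, IGF1R, IGF1 and ACVR2B. Neighbours were called separated where 3 of 3 libraries had the same sign and the mean log2 ratio exceeded 2 SD. MSTN lay above ACVR2A by 2.20 ± 0.86 on the log2 scale and IGF1 above ACVR2B by 2.54 ± 0.39 (SD, n = 3), and both met that rule. ACVR2A lay above IGF2 by 1.10 ± 0.75 and IGF2 above FST by 1.35 ± 0.71 in all 3 libraries, within 2 SD. Without library 3 both met the rule, at 0.69 and 0.95, as did IGF2 over FST with a pseudocount of 0.1 or 1. With a library left out the rule asked for the same sign in only 2 libraries and used an SD of 2 values, a weaker requirement. FST and IGF1R changed places, at log2 ratios of 1.48, 1.56 and -0.44 in libraries 1 to 3, since FST was below both IGF1R and IGF1 in library 3. Without that library FST lay 1.52 above IGF1R and met the rule. Over all 21 pairs 15 met the rule, and 20 without library 3. The exact two-sided sign-flip permutation test gives no p below 0.25 with 3 libraries. Its smallest Benjamini-Hochberg adjusted p was 0.292 over the 21 pairs and 0.275 over the 11 ratios, so no ratio passed a threshold of 0.05.

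Except for MSTN, the genes were highest in the same library. Of the 7 genes, 6 were highest in library 1, 5 lowest in library 3 and 2, the receptors ACVR2A and ACVR2B, lowest in library 2. Without a filter, 47.7% of named genes were highest in library 1, 38.9% lowest in library 3 and 33.2% lowest in library 2. After median-of-ratios scaling, which lowers library 1 by 0.11 on the log2 scale, the counts for the 7 genes were again 6, 5 and 2. Among the genes kept, 51.1% were highest in library 1 as deposited and 37.2% after that scaling. Lowest in library 2 were 34.8% as deposited and 32.3% after it. Lowest in library 3 were 39.4% as deposited, and the share after scaling is not given here. IGF1, IGF1R and ACVR2B are counted among the 7 but were not among the genes kept.

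On the log2(FPKM + 1) scale, which understates differences of low genes, 2 of the 4 genes kept differed more than 2-fold between libraries. FST lay 1.63 higher in library 1 than in library 3, and IGF2 1.21 higher. Between libraries 1 and 3, 8.89% of the genes kept passed 2-fold. FST also lay 1.15 higher in library 2 than in library 3, where 3.93% of genes passed. None of the 4 passed between libraries 1 and 2, where 8.16% of genes did. With a pseudocount of 0.1, ACVR2A passed 2-fold between libraries 1 and 2, as did 12.2% of the genes kept at that setting. With no value added, library 1 was above library 2 by 2.26-fold for ACVR2B and 2.01-fold for IGF1, which were not kept. IGF1 was also 2.39-fold higher in library 1 than in library 3. The share of all genes past 2-fold with no value added is not given here. MSTN lay 0.88 higher in library 2 than in library 3.

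The spread over the 3 libraries was tested for all 6595 genes kept with limma's variance test, which sets the variance of each gene against the trend with level. It called 0 of the 4 genes and 0 of all genes, 0% at a Benjamini-Hochberg adjusted p under 0.05. FST had an SD of log2 level of 0.84 (unadjusted p = 0.040, limma adjusted p = 0.814), above that of 96.1% of 1352 genes within 0.5 log2 of its level. IGF2 had an SD of 0.61 (limma adjusted p = 0.959) and ACVR2A of 0.47 (limma adjusted p = 0.973). MSTN had an SD of 0.44 (limma adjusted p = 0.978), above that of 78.4% of 644 genes of like level. An unadjusted p under 0.05 was reached by FST alone among the 4, and by 372 genes, 5.64%, in all. A p that misses the threshold does not show that the genes varied little.

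**Figure D3:**
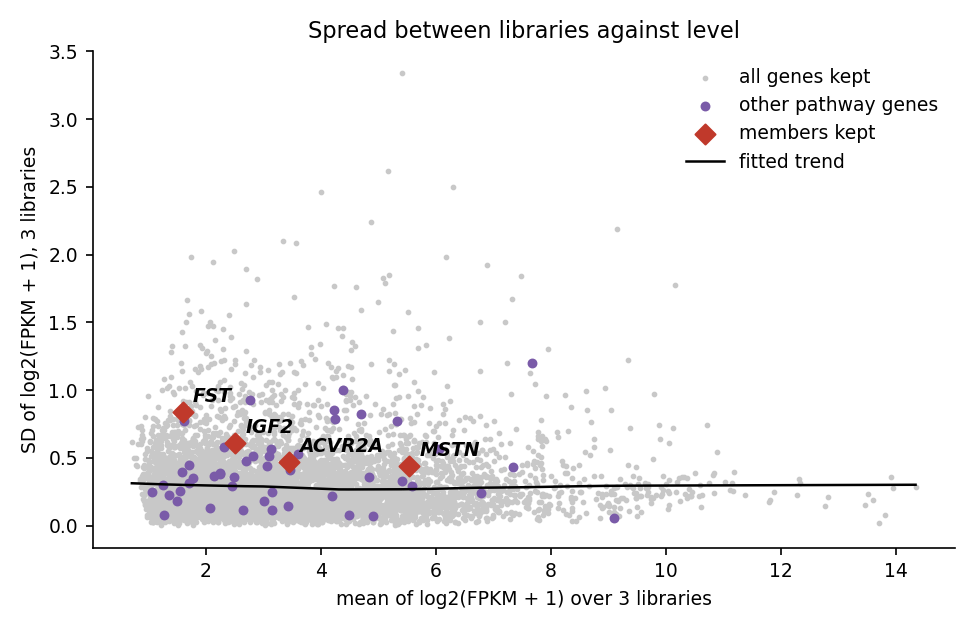
SD of log2(FPKM + 1) over 3 libraries against its mean for 6595 genes (grey), other pathway genes (purple) and the 4 genes kept (red diamonds), with the trend fitted by limma as a line. All 4 lie above the line, FST at 0.84 and MSTN at 0.44.

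The wider pathway was read from 10 lists of other genes, with 60 of 87 matched and 47 kept. Of the 47, 0 were called by the variance test, and 7 reached an unadjusted p under 0.05, against 5.64% of all genes. Their median SD of log2 level was 0.36, against 0.26 over all genes kept, and 0.24 without library 2 against 0.23. Library 1 held the highest value for 31 of the 47 and library 2 the lowest for 31, against 51.1% and 34.8% of all genes. After median-of-ratios scaling these counts were 26 and 27, against 37.2% and 32.3%. More than 2-fold separated libraries 1 and 2 for 11 of the 47 (8 after median-of-ratios scaling), against 8.16% of all genes. Of these 11, 10 were higher in library 1, as were 343 of the 538 among all genes. Libraries 1 and 3 were separated for 4 of the 47, against 8.89% of all genes, and libraries 2 and 3 for 3, against 3.93%.

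Of other ligands, extracellular binders and proteases, 1 gene in each list was kept. The ligands GDF11, TGFB1 and TGFB2 had no matched row. TGFB3, a TGF-beta ligand, reached 128, 226 and 142 FPKM in the 3 libraries and, like MSTN, was highest in library 2. INHBA, the activin A subunit, was listed at 0.291, 0.559 and 0.872 FPKM. Among extracellular binders, the matrix proteoglycan DCN was listed at 90.8, 126 and 112 FPKM. FSTL3, a relative of FST, was listed at 3.44, 0.957 and 0.872 FPKM, highest in library 1 as FST was. FURIN, a protease that cleaves the myostatin propeptide, was listed at 51.1, 32.3 and 43.9 FPKM, and PCSK5, of the same protease family, at 1.01, 0.526 and 0.717 FPKM.

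The highest of the other receptors matched had means near that of ACVR2A. ACVR1 and ACVR1B had no matched row and were not analysed here. BMPR2, the type II receptor of bone morphogenetic proteins, was listed at 10.99, 6.97 and 12.9 FPKM and TGFBR2 at 11.7, 6.63 and 5.42 FPKM. The coreceptor TGFBR3 had the largest spread of the list, at 12.4, 2.71 and 5.26 FPKM. Of the 6 receptors kept, 4 were highest in library 1, against 51.1% of all genes. Likewise 4 were lowest in library 2, the library with the lowest ACVR2A, against 34.8% of all genes. Both counts were the same after median-of-ratios scaling, against 37.2% and 32.3%.

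SMAD proteins carry the signal of these receptors to the nucleus. SMAD4 had no matched row and was not analysed here. Of 9 SMAD and repressor genes kept, 8 were highest in library 1 (7 after median-of-ratios scaling), against 51.1% of all genes (37.2%). Library 2, where MSTN was highest, held the lowest value for 7 of the 9 under both scalings, against 34.8% of all genes (32.3%), and library 3 for SMAD3 and SMAD7. SMAD1, of the bone morphogenetic protein branch, was listed at 35.5, 11.1 and 13.8 FPKM (SD of log2 level 0.85, limma unadjusted p = 0.026). SMAD5, of the same branch, was listed at 32.1, 20.3 and 31.5 FPKM. The myostatin branch had lower levels: SMAD2 was listed at 9.79, 8.78 and 10.9 FPKM and SMAD3 at 3.68, 1.83 and 1.66 FPKM, and SMAD2, SMAD3 and SMAD7 were named here after their values were seen.

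On the IGF side, 5 genes of binding proteins and other receptors were kept. IGFBP4, which binds IGFs and limits their access to the receptor, was listed at 31.6, 17.8 and 9.90 FPKM, and IGFBP5 at 9.55, 8.24 and 4.89 FPKM. Both were highest in library 1 and lowest in library 3, as IGF1, IGF2 and IGF1R were. Of the 5 genes, 4 were highest in library 1, against 51.1% of all genes. The exception was IGFBP2, listed at 4.32, 5.79 and 3.54 FPKM. INSR, the insulin receptor, was listed at 6.72, 2.50 and 3.57 FPKM, and IGF2R at 8.44, 4.08 and 4.69 FPKM. IGFBP2, INSR and IGF2R were named after their values were seen. IGF2R is a lysosomal sorting receptor that in mammals also clears IGF2, a binding that the chicken protein is known to lack.

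The growth hormone axis, which drives IGF1 in liver and muscle, had 4 genes kept. GHR, the growth hormone receptor, was listed at 71.8, 24.9 and 33.1 FPKM and CISH, a feedback inhibitor of cytokine receptors, at 35.3, 8.57 and 25.2 FPKM. Both were highest in library 1 and lowest in library 2, and their unadjusted p in limma's test was 0.036 and 0.014. The other 2 genes kept, named after their values were seen, had an unadjusted p above 0.05. JAK2, the kinase bound to the receptor, was listed at 2.93, 1.28 and 1.93 FPKM (unadjusted p = 0.288 in limma's test). SOCS2, a feedback inhibitor, was listed at 1.26, 1.46 and 2.06 FPKM (unadjusted p = 0.613 in limma's test) and was lowest in library 1.

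The genes downstream of the IGF receptor had a spread near that of all genes. Of 15 kept genes of AKT and mTOR signalling, 0 reached an unadjusted p under 0.05 in limma's test, and their median SD of log2 level was 0.25 against 0.26 over all genes. Between libraries 1 and 2, 3 of the 15 (PIK3CA, AKT1 and DEPTOR) differed more than 2-fold, against 8.16% of all genes. EIF4EBP1, a translation repressor that mTOR inactivates, was listed at 570.1, 532 and 539 FPKM. DEPTOR, an inhibitor of mTOR, was listed at 94.8, 43.0 and 69.0 FPKM. Of these genes, 8 of 15 were highest in library 1 as deposited, against 51.1% of all genes. After median-of-ratios scaling 5 were, against 37.2%. Library 2 held the lowest value for 10 of the 15 as deposited, against 34.8% of all genes. After that scaling it did so for 6, against 32.3%.

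Of the FOXO factors and atrophy targets, 3 genes were kept. CDKN1A, a cell cycle inhibitor that myostatin raises in mouse myoblasts, was listed at 135, 531 and 117 FPKM, highest in library 2 as MSTN was. FOXO3, a transcription factor that AKT holds out of the nucleus, was listed at 44.8, 13.6 and 24.7 FPKM and was lowest in that library. Their unadjusted p in limma's test was 0.0093 and 0.028. The third, FOXO1, a transcription factor that AKT holds out of the nucleus, stood at 4.05, 2.55 and 4.95 FPKM (unadjusted p = 0.295 in limma's test). Its naming, too, followed a look at its values. The atrophy ligases FBXO32 and TRIM63 had no matched row and were not analysed here. IGF2BP1 and IGF2BP3, which bind IGF2 mRNA, were listed at 4.87, 2.51 and 4.18 FPKM and at 1.49, 1.25 and 1.46 FPKM.

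**Figure D4:**
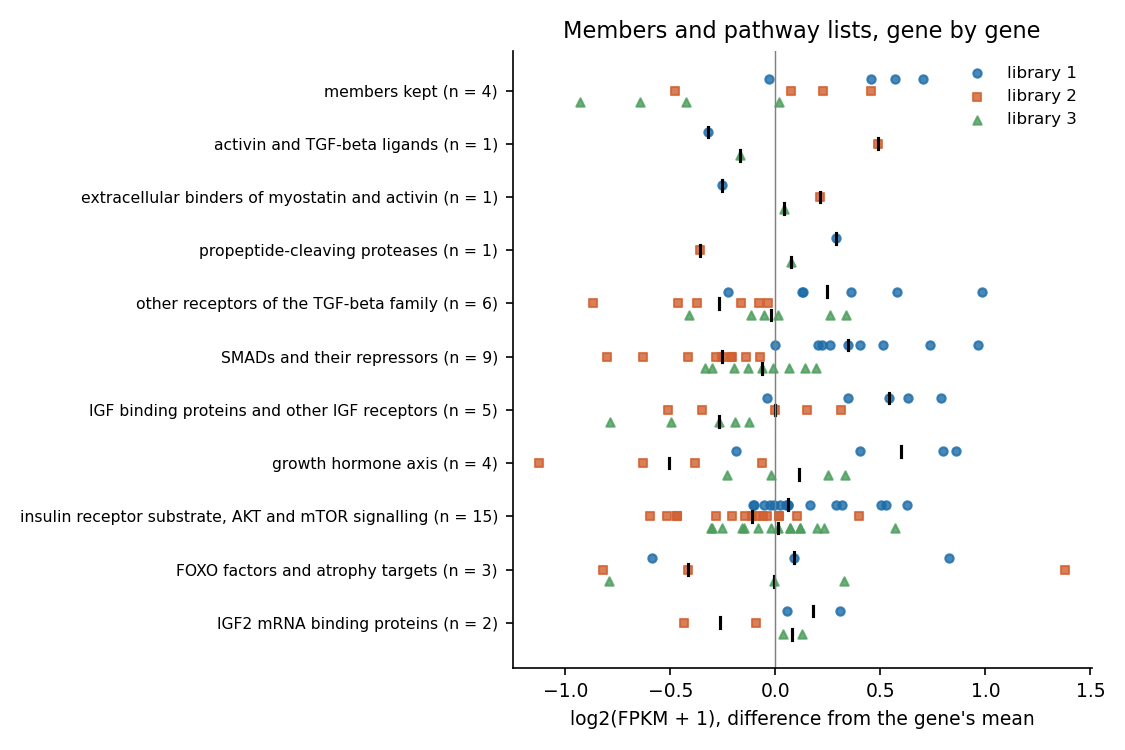
Difference of each kept gene from its own mean of log2(FPKM + 1), with 1 point per gene and library, for the 4 genes of the set that were kept and 10 pathway lists, and a black tick at the median of a list. SMAD and growth hormone genes lie mostly to the right in library 1 and to the left in library 2. The 15 genes of AKT and mTOR signalling lie on both sides of 0 in each library. Of these 15, 8 were highest in library 1 and 10 lowest in library 2.

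Markers of other cells moved with some of these values. In bulk tissue, fewer cells of a type and less RNA per cell cannot be told apart. The 5 of 6 satellite cell markers matched (muscle stem cells) summed to 34.5, 15.3 and 9.75 FPKM in libraries 1 to 3, in the same library order as FST, IGF1 and IGF2. MYF5 was listed at 16.4, 8.10 and 4.04 FPKM and VCAM1 at 15.2, 5.01 and 3.52 FPKM, while PAX7, the defining factor of the type, was listed at 2.43, 1.71 and 1.96 FPKM. Of the 3 satellite cell markers kept, 3 were highest in library 1 and 2 lowest in library 3, against 51.1% and 39.4% of all genes. PAX3, which was not kept and was named after its values were seen, was highest in library 2. The 7 of 7 adipocyte markers summed to 281, 172 and 104 FPKM, led by FABP4 at 113, 71.3 and 15.5 FPKM and G0S2 at 93.6, 42.7 and 27.4 FPKM. Of these, 5 were highest in library 1 and 6 lowest in library 3, against 51.1% and 39.4% of all genes. ADIPOQ, an adipocyte hormone, went otherwise, at 38.4, 36.1 and 46.9 FPKM. The 7 of 9 macrophage markers matched summed to 388, 334 and 163 FPKM, led by CD74, which made up most of the sum, and CTSS. All 7 were lowest in library 3, against 39.4% of all genes. Of them 4 were highest in library 1, against 51.1%, and 3 (CTSS, C1QA and C1QB) in library 2, against 26.3%. Macrophages and satellite cells are known sources of IGF1 in muscle, and the part of these cells in the values of FST, IGF1 and IGF2 was not tested.

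Other cell types followed other library orders. The 6 of 7 fibroblast markers matched summed to 313, 752 and 541 FPKM, led by COL3A1 and COL1A2. That sum was highest in library 2, as MSTN, TGFB3 and DCN were, and so were 5 of the 6 genes, against 26.3% of all genes. MSTN was lowest in library 3, while the fibroblast sum, TGFB3 and DCN were lowest in library 1. PDGFRA, a receptor that marks the type, was lowest in library 2, at 5.53, 3.36 and 3.65 FPKM. Endothelial markers (5 of 7 matched, led by PLVAP and CDH5) summed to 86.2, 50.3 and 56.3 FPKM, lowest in library 2 as both type II receptors were. Of the 5 genes, 4 were lowest in library 2, against 34.8% of all genes, and 1 in library 3. PLVAP, at 57.0, 30.1 and 30.8 FPKM, differed little between libraries 2 and 3. Smooth muscle markers (3 of 4 matched, led by ACTA2 and TAGLN) summed to 23.6, 36.1 and 44.3 FPKM. Nerve markers (4 of 5 matched) summed to 49.2, 38.2 and 36.4 FPKM, nearly all of it PMP22, while SOX10 and S100B were near 0. Red blood cell markers (4 of 6 matched) summed to 24.3, 54.1 and 102 FPKM, nearly all of it HBBA, with HBZ listed at 0. The part of these cells in the values of MSTN and its receptors was not tested.

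**Figure D5:**
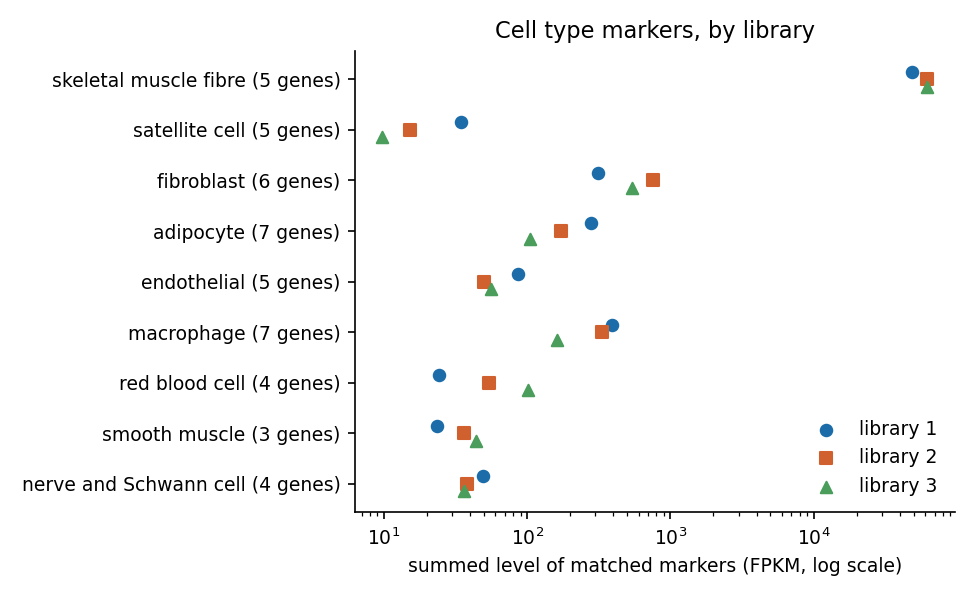
Summed FPKM of the matched markers of 9 cell types on a log axis, with 1 point per library. Satellite cell, adipocyte and macrophage sums are highest in library 1 and lowest in library 3, fibroblast sums are highest in library 2 at 752 FPKM, and the fibre sums lie from 48879 to 62384 FPKM.

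The genes whose pattern over the 3 libraries was most like that of each kept gene were found by Euclidean distance between centred log2(FPKM + 1) values, among genes with a mean of at least 5 FPKM. For MSTN they were NTPCR, listed at 10.7, 15.4 and 7.82 FPKM, and LRRFIP1, at distances of 0.013 and 0.031. For FST the nearest was PRKAB1, a subunit of the energy sensor AMPK, listed at 30.02, 20.96 and 9.67 FPKM, at a distance of 0.085, then LOC100859645 at 0.131. The added 1 shrinks the differences of FST, itself at 3.91, 2.53 and 0.584 FPKM, more than those of PRKAB1. For ACVR2A they were TRAM1L1 and PALD1, at 0.012 and 0.030, and for IGF2 SERINC2 and CCL26, at 0.013 and 0.060. Within a distance of 0.2 lay 48 genes for MSTN, 136 for ACVR2A, 36 for IGF2 and 6 for FST, of 4365 or 4366 candidates. With 3 libraries many genes share a pattern, and the likeness carries no test.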

How the data were processed

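Oligo(dT)-selected RNA of breast muscle was sequenced on an Illumina HiSeq2000, per the labels. CASAVA 1.7, Bowtie2 and HTSeq appear in the submitters' processing notes without stated roles. Genome build, annotation and the quantifying program: not given in the sources used here. The deposited values, 1 per RefSeq transcript for 36977 transcripts, were treated as FPKM. If they were TPM, ratios inside a library would be unchanged. Read depth is unknown: among 3293 low transcripts at most 11 (0.334%) shared a ratio between libraries 1 and 2 to 3 decimals of the natural log, so whole reads were not recovered and no counting interval is given. Accessions were matched without version to an NCBI table of chicken genes (assembly GRCg7b), from which only symbols were taken. In all 13188 transcripts (35.7%) matched and 23789 did not. Isoforms of the 7 genes among the unmatched rows would enter no sum, and genes with similar transcripts can share reads.

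Ratios were taken within a library with no pseudocount. The variance test used limma 3.58.1 (R 4.3.3) on log2(FPKM + 1) for genes reaching 1 FPKM in 2 or more libraries, robust fit with trend, 2 residual degrees of freedom, upper F tail and Benjamini-Hochberg adjustment over 6595 genes. It was run on simulated data, and its power with 3 libraries is not given here. With 2 residual degrees of freedom and 4.13 for the fitted trend, only a very large spread could pass among 6595 genes. Named pathway genes were the 2 highest and the most variable kept gene of each list, and marker genes the 2 highest. Others were chosen after their values were seen, apart from genes named as unmatched, at or near 0, or as the defining marker. That choice is not stated where PIK3CA, AKT1, ADIPOQ, PDGFRA, C1QA and C1QB are named. The genes and lists were chosen with earlier results of these data known. Alternatives were pseudocounts, filters, scalings, curated rows, single rows and leaving out each library.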

Additional observations from a re-analysis of the deposited data

How the results depend on the processing

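The levels of the 7 genes moved by less than 1 SD under all 49 alternatives tried, which is a weak check. Each gene had 1 curated row, so the settings with curated rows only and with single rows repeated the main levels and ratios. Leaving out 1 of 3 libraries cannot move a mean by 1 SD. Of 77 alternative values of the 11 ratios, these repeats included, 74 kept their direction and their side of the rule for separation. The other 3 met the rule where the main value did not: FST to its receptors at -1.87 with a pseudocount of 1 and -1.66 without library 3, and IGF1 to IGF1R at -0.27 without library 1. Leaving out each library in turn, these ratios ran from -2.99 to -1.66 and from -0.27 to -0.055. Leaving out a library gave 15 to 20 separated pairs, by the rule applied to only 2 libraries. No paired analysis was possible because the libraries form 1 group. The variance test called 0 to 30 genes with a library left out (26 without library 2, 30 without library 3). Of the 7 genes, 3, 3 and 4 were tested without libraries 1, 2 and 3, and none of these was called. Over all its alternatives the adjusted p in limma's test ran from 0.718 to 0.994 for FST and from 0.635 to 0.994 for IGF2. Genes more than 2-fold apart numbered 538, 586 and 259 between libraries 1 and 2, 1 and 3, and 2 and 3. They numbered 300, 353 and 141 with curated rows only and 339, 376 and 142 with a minimum of 5 FPKM. With a pseudocount of 0.1 they numbered 804, 884 and 467. On the log2(FPKM + 1) scale, 0, 2 and 1 of the 4 genes kept were past 2-fold in the same pairs of libraries. With a pseudocount of 0.1, 1 of them was past 2-fold between libraries 1 and 2. With a minimum of 5 FPKM, which FST and IGF2 do not pass, the counts were 0 and 0 between libraries 1 and 3, and 2 and 3. FST also fails the filter with library 1 or 2 left out, which gave 0 between libraries 2 and 3 and 1 between libraries 1 and 3. Pathway genes past 2-fold between libraries 1 and 3 were 2 in place of 4 after median-of-ratios scaling. With a library left out, the median SD of the pathway genes kept ran from 0.24 (without library 2) to 0.42 (without library 3). With a pseudocount of 0.1 that median was 0.45. Without library 3, 6 of the 7 genes were lowest in library 2. The counts by library of the 7 genes under other settings and the equal-total scaling of the tests were added after seeing the data. With the depth unknown, the precision of values below 1 FPKM, among them FST in library 3, cannot be given.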
